A study of Mus musculus with 50 samples.

Results

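Gene expression was compared between livers of mouse fetuses whose mothers had received the higher of 2 doses of GenX during pregnancy and livers of fetuses of vehicle-dosed mothers. Samples were taken by their titles: 4 fetal livers of the GenX group at 10 mg/kg/day (GenX10) and 5 fetal livers of the control group, 9 of the 50 arrays of the series. Each array gave a value for 30751 genes with a usable gene name. GenX is the trade name of the ammonium salt of hexafluoropropylene oxide dimer acid, a fluorinated ether acid made to replace perfluorooctanoic acid (PFOA). The dams were CD-1 mice, an outbred strain, and none carried a transgene. They were gavaged once a day from embryonic day 1.5 to embryonic day 17.5 with vehicle (0 mg/kg/day), with GenX at 2 (GenX2) or 10 mg/kg/day, or with PFOA at 1 or 5 mg/kg/day, and livers of dams and fetuses were frozen at gestational day 17.5. The fetus was therefore exposed through its mother. According to the labels each fetal array holds a female fetus, drawn at random where a litter offered several, so that the litter is the unit of replication. The same fit covered 5 fetal livers at 2 mg/kg/day of GenX, and the maternal comparison used 5 control and 5 GenX10 dams. The comparison asks which liver transcripts of the fetus differ after gestational exposure at the high dose, whether they differ from those at the low dose, and whether the mother's liver shows the same change.

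Long-chain fatty acids are broken down by beta-oxidation in mitochondria, very long-chain and branched ones by beta-oxidation in peroxisomes, and some are first hydroxylated at the far end of the chain (omega oxidation) by cytochrome P450 enzymes of the Cyp4a family. In rodent liver the genes of all these routes are targets of PPARA, a nuclear receptor that binds fatty acids and many fluorinated acids and pairs with RXR on a direct repeat element called DR1. The fetal liver late in gestation is a mixed organ: hepatocytes that make albumin and alpha-fetoprotein stand among red cell precursors, since it is also a site of blood formation.

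The arrays matched the labelled tissue. Albumin (Alb) lay at 13.31 ± 0.06 (SD, n = 5, log2 signal) in controls and alpha-fetoprotein (Afp), the albumin of the fetus, at 12.98 ± 0.09. Of 25 markers of bile duct and neighbouring tissue, 22 were at background in controls. Per array of these groups, 4393 to 5886 genes lay above the 95th percentile of the array's negative control probes, the limit used here for background. GenX10 replicate 2 stood apart with 4393 genes and a background limit of 8.18 (log2), against 7.76 to 7.77 on the other 3 GenX10 arrays. Xist, the RNA of the inactive X chromosome in females, was low in control replicate 3 and GenX2 replicate 2 (4.5 to 5.39) and between 10.52 and 11.48 on the other 23 fetal arrays, against the stated sex of those 2. The source name of GenX2 replicate 5 gives the GenX10 group where its title gives GenX2, and that of a fetal array titled as PFOA gives GenX2. Titles were followed.

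Between GenX10 and control, 2851 of 30751 genes changed (9.27%) at a Benjamini-Hochberg adjusted p under 0.05 in a limma fit of the 25 fetal arrays. Of these, 1360 were higher (4.42%) and 1491 were lower (4.85%). Among the 6553 genes above background in at least 1 of these groups, 910 were higher and 534 lower. The other 1407 calls concerned genes at background in both groups, for which no fold is given. Gene lists differ in how many members lay above background, so their counts of calls stand beside both sets of counts. Rises in measured signal were larger than falls: 128 genes rose and 87 fell by at least 2-fold, 26 rose and 7 fell by at least 4-fold, and 9 rose and 2 fell by at least 8-fold. Most calls were small, 2158 of them under 1.5-fold. Without GenX10 replicate 1 the count was 1547, without GenX10 replicate 2 it was 1844, and with the 9 arrays of these groups alone in the fit it was 1751. With each array centred on its own median 2137 genes were higher and 831 lower, so the balance of rises and falls depends on the scaling, and the median difference of all genes was -0.06 (log2). These are values of whole liver, in which fewer cells of a type and less RNA per cell cannot be told apart.

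The largest measured rise was in omega oxidation. Cyp4a14, the fatty acid hydroxylase at chr4:115486200-115496158 (GRCm38.p6), had log2 signals of 5.76, 6.95, 7.13, 9.19 and 7.39 in the 5 controls and of 12.66, 12.51, 12.46 and 12.57 in the 4 GenX10 livers. The GenX10 livers lay close together and above every control, and control replicate 4 stood well above the other controls. The difference in measured signal was 5.27 ± 0.35 (SE, adjusted p = 2.3e-10), and since only 1 of the 5 controls was above background, no exact fold is given. Of the 11 measured genes of the list, 7 rose and none fell, with a median difference of 1.50. Cyp4a31 rose by 3.51 ± 0.31 in measured signal, also with 1 of 5 controls above background. Cyp4a32 was not well above background in any control and rose at least 5.17-fold, from a measured mean of 6.81 to 10.26 (adjusted p = 8.4e-08). Cyp4a12a rose by 2.37 ± 0.35 and Cyp4a12b by 2.69 ± 0.36, from control means of 9.10 ± 0.75 and 8.79 ± 0.69 (SD, n = 5). These genes sit side by side on chromosome 4 and are near copies in pairs, so their separate values are uncertain where probes are shared. Aldh3a2, the fatty aldehyde dehydrogenase that takes the product further, went from 8.67 ± 0.24 to 10.17 ± 0.12 (n = 5 and 4), a rise of 2.82-fold (adjusted p = 1.5e-08). The members of the Cyp4f family differed among themselves: Cyp4f15 rose at least 1.53-fold from background (means 7.47 and 8.51), and Cyp4f13 at 0.24 did not pass.

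Peroxisomal beta-oxidation rose as a group, 19 of 27 measured members being higher and none lower, with a median difference of 0.83 beside -0.06 over all genes. Ehhadh, the bifunctional enzyme of the peroxisomal pathway (chr16:21761285-21787834), had signals of 8.59, 9.07, 9.37, 9.47 and 8.72 in controls and 12.69, 12.59, 12.45 and 12.64 in GenX10. No array of either group came near the other, and the difference of 3.55 ± 0.13 is 11.7-fold (adjusted p = 8.5e-15). Acaa1b, a peroxisomal thiolase, went from 7.98 ± 0.13 to 10.59 ± 0.07, which is 6.13-fold, with 3 of 5 controls above background. Acot3, which frees fatty acids from coenzyme A inside the peroxisome, was not well above background in controls and rose at least 4.07-fold (measured means 6.48 and 9.92, adjusted p = 1.4e-11). Pex11a, a membrane protein of dividing peroxisomes, was likewise not well above background in controls and rose at least 1.72-fold (means 6.43 and 8.68).

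Genes that supply the peroxisome with fatty acids rose too. Abcd3, a transporter that brings fatty acyl-CoA into the organelle, had signals of 8.62, 8.87, 8.97, 9.03 and 8.63 in controls and 10.83, 10.90, 10.51 and 10.71 in GenX10. The groups were apart by 1.92 ± 0.15, or 3.77-fold (adjusted p = 2.7e-09). Crot, which makes carnitine esters of shortened chains for export to mitochondria, rose 3.07-fold, and Slc27a2, which activates very long-chain fatty acids, rose 2.81-fold. Hsd17b4, the enzyme that also handles branched chains and bile acid precursors, rose 2.58-fold. The members that did not pass were Hacl1 (0.68), Cat (0.29), Pex16 (0.24), Acot5 (0.17), Scp2 (0.11), Acox2 (0.07), Phyh (-0.13) and Pecr (-0.21). Cat encodes catalase, which removes the hydrogen peroxide that peroxisomal oxidation makes, and its 95% interval ran from 0.08 to 0.51, with every GenX10 array above the controls. Acox2 and Scp2, which serve branched chains and bile acid side chains, overlapped the controls, with Acox2 at 8.63 to 9.03 in controls and 8.84 to 9.07 in GenX10.

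In mitochondria 18 of 21 measured members of the beta-oxidation and carnitine list rose and none fell, with a median difference of 1.08. Acot2, a thioesterase of the mitochondrial matrix, read 8.40, 8.51, 8.53, 8.73 and 8.52 in controls and 12.62, 12.20, 12.23 and 12.22 in GenX10. This is a difference of 3.78 ± 0.17, or 13.8-fold, between groups with little internal spread (adjusted p = 2.5e-13). Its cytosolic near copy Acot1, its neighbour on chromosome 12, rose by 3.24 ± 0.15 in measured signal with 2 of 5 controls above background, and signal of shared sequence could add to either. The carnitine shuttle, which carries fatty acids into the mitochondrion, rose at each measured step. Cpt1a, the liver form of the entry enzyme, had signals of 8.65, 8.82, 9.27, 9.19 and 9.05 in controls and 9.95, 10.10, 10.13 and 10.10 in GenX10, a rise of 2.11-fold without overlap (adjusted p = 0.00019). Cpt1b, the form best known from muscle, was not well above background in controls and rose at least 5.02-fold (measured means 7.30 and 10.22, adjusted p = 4.6e-10). The carnitine carrier Slc25a20 rose 4.11-fold and Cpt2, at the inner membrane, rose 3.48-fold. Slc22a5, which takes carnitine into the cell, rose at least 1.39-fold from background (means 6.54 and 8.37).

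Within the mitochondrial spiral the size of the rise differed between enzymes. The first dehydrogenation step rose by 1.29 ± 0.09 for very long chains (Acadvl), 1.04 for long chains (Acadl) and 0.60 ± 0.11 for medium chains (Acadm), while Acads, for short chains, at 0.33 did not pass. Both subunits of the trifunctional protein rose, Hadha 2.01-fold and Hadhb 2.19-fold. Decr1 and Eci1, which prepare unsaturated chains, rose 2.72-fold and 3.57-fold. Etfdh, which passes the electrons on to the respiratory chain, rose by 1.32. Echs1 (0.17) and Ucp3 (0.16, at background in both groups) did not pass.

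**Figure D1:**
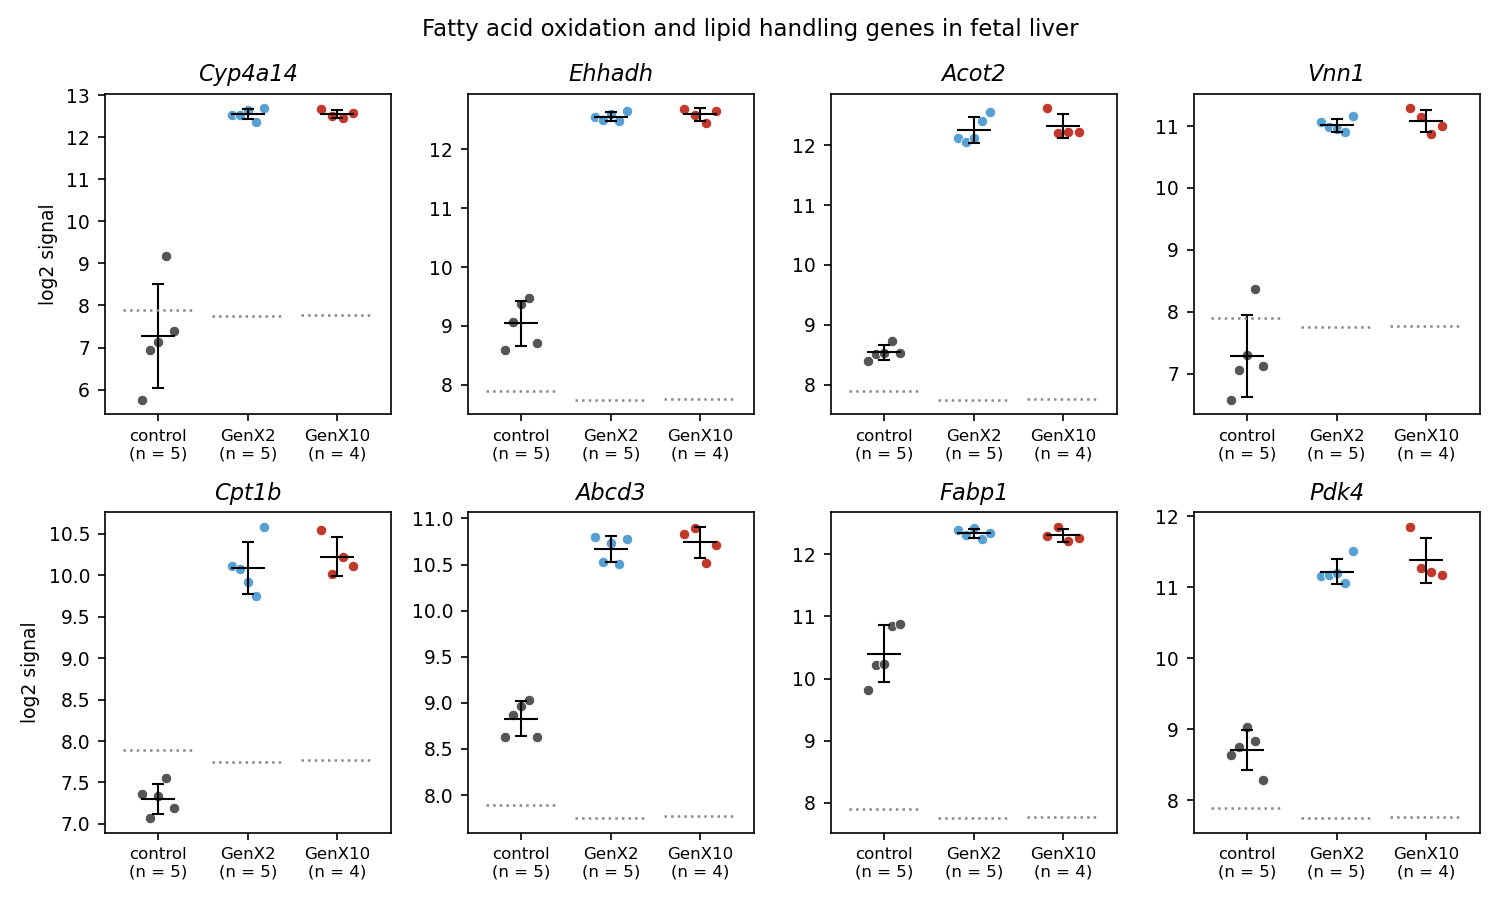
Log2 signal of 8 genes on each fetal array of the control (n = 5), GenX2 (n = 5) and GenX10 (n = 4) groups. Points are arrays, bars are the mean and SD, and the dotted line is the group's median limit of background. For all 8 genes each GenX10 array lies above each control array. Control replicate 4 of Cyp4a14 reaches 9.19.

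Other lipid genes known to answer to PPAR receptors were more divided: of 36 measured, 15 rose, none fell and 21 did not pass, with a median difference of 0.46. Vnn1, a pantetheinase long used as a marker of PPARA activity in liver (chr10:23894688-23905344), had signals of 6.58, 7.06, 7.30, 8.36 and 7.12 in controls and 11.29, 11.15, 10.87 and 11.01 in GenX10. All 4 exposed livers were above all controls, by 3.80 ± 0.25 on average in measured signal (adjusted p = 1.9e-10), and 1 of 5 controls was above background. Fabp1, the fatty acid carrier of the hepatocyte cytosol, went from 9.82, 10.22, 10.24, 10.85 and 10.88 to 12.30, 12.45, 12.22 and 12.26, a rise of 3.75-fold (adjusted p = 6.8e-09). The controls of Fabp1 varied widely, and the exposed livers lay close together above all of them. Pdk4, the kinase that turns off pyruvate dehydrogenase and so spares glucose, rose 6.37-fold (8.71 ± 0.28 to 11.38 ± 0.32).

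Plin2, the coat protein of liver lipid droplets, read 9.15 to 9.41 in controls and 10.79 to 10.93 in GenX10, a rise of 1.58 ± 0.14 (adjusted p = 1.7e-08). Angptl4, a secreted inhibitor of lipoprotein lipase, was not well above background in controls and rose at least 2.25-fold, Me1, which makes NADPH from malate, at least 2.48-fold, and Retsat, a retinol saturase, at least 2.97-fold. Creb3l3, a hepatic transcription factor for lipid genes, rose 2.05-fold, Mgll, which cleaves monoglycerides, at least 1.50-fold and the fatty acid transporter Cd36 1.90-fold. Mttp, which loads fat onto apolipoprotein B, rose 2.28-fold (adjusted p = 3.1e-05).

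The members that did not rise include several known from adipose tissue or muscle. Fabp5 had signals of 9.21, 9.27, 9.41, 9.13 and 9.13 in controls and 9.38, 9.33, 9.12 and 9.20 in GenX10, with full overlap and a 95% interval of -0.17 to 0.22. Fabp3 (which has a pseudogene of like sequence), Fabp4, Cidea, Cidec, Plin1 and Plin4 were at background in both groups. Fgf21, the hormone that PPARA raises in fasting, was also at background in both groups, with values of 5.46 to 5.98 and 5.50 to 5.78. The receptor itself did not pass: Ppara read 8.24, 8.43, 8.73, 8.40 and 8.12 in controls and 8.51, 8.40, 8.30 and 8.48 in GenX10, a difference of 0.04 with an interval of -0.23 to 0.31. Of 13 receptors and co-regulators measured, Lpin2 (0.58) and Ncoa1 (at background in both groups) were called, and Lpin2 overlapped the controls. The call of Ncoa1 was lost in 11 of 21 alternatives, and without GenX10 replicate 1 neither was called.

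The promoters of these genes were searched for the DR1 element of PPARA and RXR, which HNF4A and other receptors also bind, because these members moved together. The letters AGGTCANAGGTCA (N for any base) were sought on both strands, allowing at most 2 differing letters, in RefSeq windows of 300 bases (250 before and 50 after the start, GRCm38.p6), and no other motif was searched. A match was found in 8 of the 46 risen members with a window (17.4%, where 59 members of the 4 lists above rose). It was found in 12 of all 77 members of these lists with a window, risen or not (15.6%). Of 18205 genes on the array with a window, 759 held a match (4.17%). For a gene with several windows the best match was taken, and of all 32841 windows 3.86% held a match. With at most 1 differing letter the shares were 2.17% of the risen members (1 gene, Fabp1) and 0.621% of the 18205 genes. No risen member held the exact letters, against 11 of the 18205 genes. A match is a description of letters and not a binding site, and elements outside the windows, such as those in introns or farther upstream, were not searched. The sequences below carry the match in capitals with 20 bases on each side, written 5′ to 3′ on the gene's strand. Fabp1 is shown for the closest match (chr6:71199792-71199844, plus strand, 67 to 55 bases before the start), and Plin2 (chr4:86670252-86670304, minus strand), Cd36 (chr5:17835927-17835979, minus strand) and Creb3l3 (chr10:81092768-81092820, minus strand) as members with 2 differing letters.
Fabp1: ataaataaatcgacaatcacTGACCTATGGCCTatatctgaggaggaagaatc
Plin2: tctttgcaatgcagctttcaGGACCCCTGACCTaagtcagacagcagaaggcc
Cd36: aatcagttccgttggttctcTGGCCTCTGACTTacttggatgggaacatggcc
Creb3l3: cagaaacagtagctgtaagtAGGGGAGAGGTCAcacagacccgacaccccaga
In Fabp1, Plin2 and Cd36 the match lies on the strand opposite to the gene. In Creb3l3 it lies on the gene's own strand. Fabp1 and Plin2 rose by 1.91 and 1.58, Cd36 and Creb3l3 by 0.93 and 1.04.

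The respiratory chain, which takes up the electrons of beta-oxidation, showed small rises across its complexes. Of 33 measured subunits and carriers, 21 rose and none fell, with a median difference of 0.29. Cycs, cytochrome c, rose 1.69-fold, from 8.94 ± 0.31 to 9.69 ± 0.16 (adjusted p = 0.00077). Uqcrc2 of complex III had signals of 9.56, 9.67, 9.79, 9.70 and 9.45 in controls and 10.36, 10.22, 9.92 and 10.06 in GenX10, above every control by a small margin and 1.42-fold on average. Each of the 21 rises was under 2-fold. The count was 13 without GenX10 replicate 1 or without GenX10 replicate 2, 12 after repeated quantile normalisation, 11 with the 9 arrays of these groups alone, and 1 where a change of at least 1.5-fold was also asked for. Among 6 genes of ketone bodies measured 2 rose and 1, Bdh2, at background in both groups, was called lower, a call lost in 15 of 21 alternatives. Bdh1, which reduces acetoacetate, rose 1.55-fold and Acat1, the mitochondrial thiolase, by 0.60.

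Fatty acid synthesis rose in part, 9 of 23 measured members being higher and none lower, with a median of 0.21. Acacb, the mitochondrial acetyl-CoA carboxylase whose product restrains fatty acid entry, was not well above background in controls and rose at least 1.62-fold (means 7.09 and 8.59, adjusted p = 0.00022). Scd1, which makes oleate, read 9.57, 9.58, 9.49, 9.74 and 9.73 in controls and 10.21, 10.66, 10.53 and 10.45 in GenX10, a rise of 1.79-fold without overlap. The elongase Elovl2 rose 1.93-fold. Fasn, the fatty acid synthase, did not pass, with control signals of 8.98 to 9.44 inside the exposed range of 8.96 to 9.68. In cholesterol synthesis 6 of 18 measured members passed, all higher, with a median of 0.22. Hsd17b7 rose 1.69-fold, Lss, which closes the sterol ring, 1.61-fold (adjusted p = 0.0074), and Cyp51 1.34-fold. The call of Cyp51 was lost in 15 of 22 alternatives. Sqle (0.14) and Hmgcs1 (0.35), which act earlier in the pathway, did not pass.

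**Figure D2:**
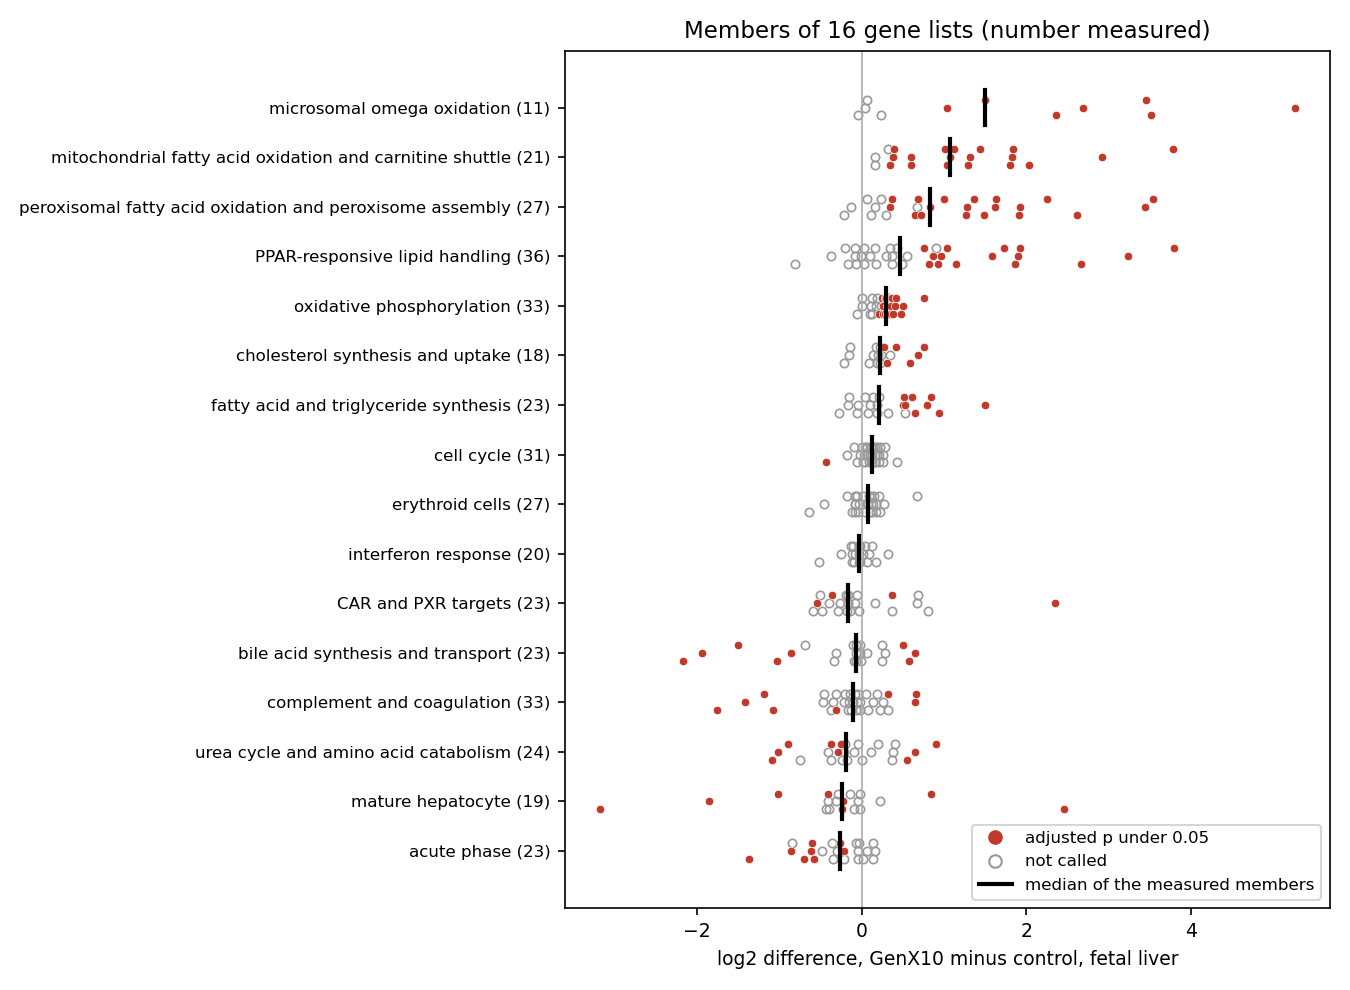
Log2 difference between GenX10 and control fetal livers for each measured member of 16 gene lists, with the number of members in brackets. Filled points passed an adjusted p under 0.05, open points did not, and the black mark is the list's median. The 4 lists of fatty acid oxidation and PPAR-responsive lipid handling have their called members on the right only. So do the lists of oxidative phosphorylation, cholesterol synthesis and fatty acid synthesis. The acute phase list has them on the left only, as does the cell cycle list with its 1 call.

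Several large rises lay outside the lists above. Lepr, the receptor of the adipose hormone leptin, had signals of 5.50, 5.77, 5.82, 5.56 and 5.26 in controls, all at background, and 9.67, 8.92, 8.71 and 8.86 in GenX10. The rise was at least 2.21-fold (adjusted p = 1.6e-09), and GenX10 replicate 1 was the highest. Abhd6, a monoglyceride lipase, went from 7.46, 7.22, 7.04, 7.31 and 7.20 to 10.47, 9.96, 10.17 and 10.05, at least 4.82-fold (adjusted p = 1.1e-11), with groups far apart. Acss3, which activates short-chain acids in mitochondria, rose at least 1.32-fold from background (means 5.44 and 8.30), and Ces1g, a carboxylesterase, at least 1.51-fold (means 5.73 and 8.49). Ephx1, the microsomal epoxide hydrolase, rose by 1.85 ± 0.21 in measured signal (7.85 ± 0.05 to 9.70 ± 0.29, with 1 of 5 controls above background), and Aldh1a7 at least 1.26-fold (means 5.88 and 8.23).

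In glucose metabolism G6pc, the enzyme that releases free glucose from liver, had signals of 5.99, 5.81, 7.27, 8.20 and 7.79 in controls and 10.02, 9.16, 9.16 and 9.55 in GenX10. The controls spread over more than 2 log2 units and all lay below the exposed livers, by 2.46 ± 0.52 in measured signal (adjusted p = 0.0032), with 1 of 5 controls above background. The glucose transporter Slc2a2 rose 1.51-fold and the transcription factor Foxo1 by 0.71 in measured signal, with 2 of 5 controls above background. Slc37a4, which carries glucose 6-phosphate to G6pc, fell by 0.57 ± 0.10. Pck1, the first enzyme of the path from lactate to glucose, was at background in both groups. In all, 4 of 20 measured members of the list rose and 2 fell.

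The largest falls were smaller than the largest rises in measured signal, and each of the 12 largest selected by rule (known genes, groups not overlapping) ended at background in GenX10, so that only a bound of the fold is given. Cyp2e1, the cytochrome P450 that oxidises ethanol (chr7:140763819-140774990), had signals of 8.95, 8.50, 8.89, 9.14 and 9.12 in controls and 5.87, 5.26, 5.70 and 6.12 in GenX10. The groups were more than 2 log2 units apart, and the level was at least 2.07-fold lower (adjusted p = 2e-08). Pon1, the paraoxonase of high-density lipoprotein (chr6:5168090-5193987), went from 8.60, 9.50, 9.49, 8.49 and 8.97 to 6.26, 6.10, 5.59 and 6.35, at least 2.20-fold lower (adjusted p = 4.8e-08). Aox3, an aldehyde oxidase, was at least 1.32-fold lower (means 8.26 and 5.25), and Gpld1, a phospholipase secreted by liver, at least 1.98-fold lower (means 8.86 and 7.18). Tff3, a trefoil peptide better known from mucous epithelia and a member of the bile duct list, was at least 1.87-fold lower (means 8.77 and 6.68), the only 1 of its 25 measured members that was called. The amylases Amy1 (means 7.97 and 6.26) and Amy2b (means 7.92 and 5.07), near copies of each other, were at least 1.07-fold and 1.03-fold lower. For Akr1c14 (means 7.40 and 5.46) and Mbl2 (7.75 and 6.00) the controls were too close to background to give a fold.

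Bile acid synthesis fell at several steps. Cyp7a1, the rate-limiting enzyme of the classic route (chr4:6265612-6275632), read 7.92, 8.05, 8.78, 8.04 and 8.03 in controls and 6.46, 5.60, 5.64 and 6.27 in GenX10. The fall was at least 1.23-fold (adjusted p = 0.0001), with the controls themselves near background. Cyp8b1, which sets the share of cholic acid, had signals of 8.84, 8.78, 8.73, 8.36 and 8.53 in controls and 7.47, 6.72, 7.21 and 7.20 in GenX10, at least 1.72-fold lower (adjusted p = 0.0012). Akr1d1, which reduces the sterol ring, was at least 1.09-fold lower (means 8.0 and 6.06), and Cyp27a1, which opens the acidic route, at least 1.06-fold lower (means 7.96 and 7.10). The bile salt export pump Abcb11 rose 1.57-fold with overlap of the groups, and Abcc2, an exporter of conjugates, by 0.58. Amacr, which converts side-chain isomers, also rose (0.50, with 1 of 5 controls above background), and Slc27a5 was called lower at background in both groups. The calls of Abcb11, Abcc2 and Amacr were lost in 5, 6 and 8 of 22 alternatives. Of 23 measured members 3 rose and 5 fell, and 5 in all were called without GenX10 replicate 1. The sensor Nr1h4 (FXR) and its target Nr0b2 were at background in both groups.

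**Figure D3:**
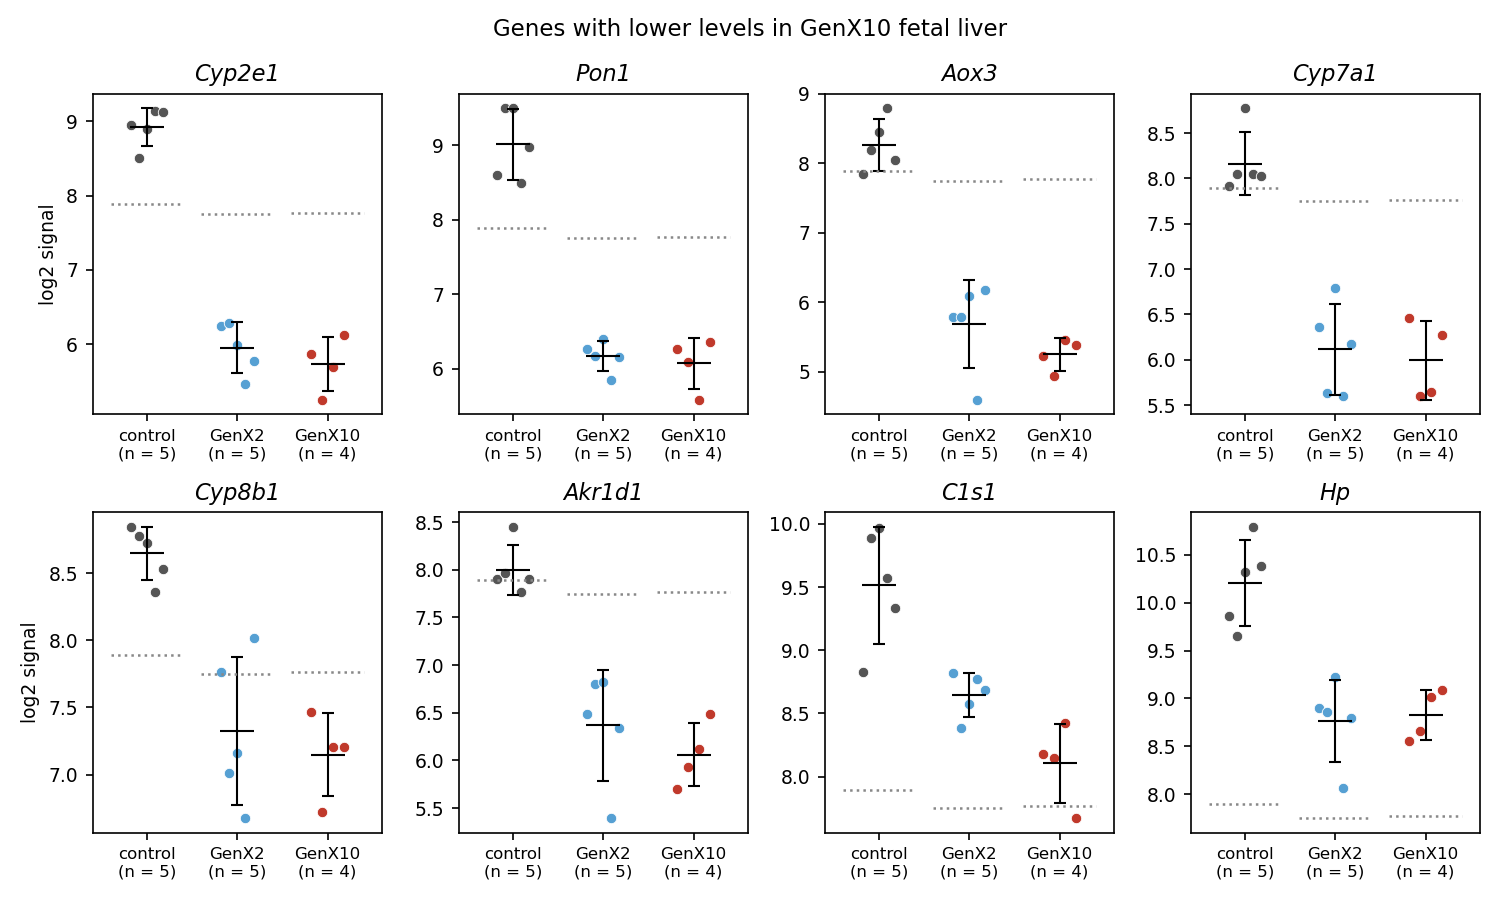
Log2 signal of 8 genes on each fetal array of the control (n = 5), GenX2 (n = 5) and GenX10 (n = 4) groups. Points are arrays, bars are the mean and SD, and the dotted line is the group's median limit of background. GenX10 arrays lie below every control array for all 8 genes, and for the first 6 genes they lie under the limit of background.

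Plasma proteins made by the liver fell in part. Among complement and coagulation genes 5 of 33 measured fell, 3 rose and 25 did not pass. Of the 6553 genes above background 534 were lower and 910 higher, and 31 of the 33 were among these 6553. C1s1, a protease of the first complement component, had signals of 8.82, 9.89, 9.97, 9.57 and 9.33 in controls and 8.18, 8.14, 8.42 and 7.67 in GenX10, all below the lowest control and lower by 1.41 ± 0.22 in measured signal (adjusted p = 0.00017), with 2 of 4 GenX10 arrays above background. C4b fell by 1.19 ± 0.29, and C1ra, from 7.82 ± 0.11 to background at 6.74 ± 0.25, was also called. The lectin Mbl1 rose by 0.66, with 1 of 5 controls above background, and F9 by 0.65, with 3 of 5 above background and overlap of the groups. The call of F9 was lost in 11 of 22 alternatives. The fibrinogen genes Fga (-0.17), Fgb (-0.21) and Fgg (-0.20) did not pass. The 8 calls of the list were 5 without GenX10 replicate 1.

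Among acute phase genes 8 of 23 measured fell and none rose, with a median of -0.26. Hp, the haemoglobin carrier haptoglobin, read 9.86, 9.65, 10.32, 10.80 and 10.38 in controls and 8.56, 8.66, 9.02 and 9.09 in GenX10, a fall of 1.37 ± 0.30 without overlap (adjusted p = 0.004). Il6ra, a subunit of the receptor for interleukin 6, was at least 1.19-fold lower (means 8.12 and 7.26, adjusted p = 5.4e-06). Hpx, Cp and Itih4 fell by 0.60, 0.70 and 0.58, and the calls of Hpx and Cp were lost in 11 and 7 of 22 alternatives. Orm2, Saa2 and Saa3 were called but at background in both groups, and the list had 4 calls without GenX10 replicate 2. Among apolipoproteins and their partners 2 of 21 rose and 6 fell, with 4 calls left without GenX10 replicate 2. Apof fell by 0.64 ± 0.15 and Apoa1, the main protein of high-density lipoprotein, by 0.31 ± 0.08, while Apob (0.17) did not pass.

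Amino acid breakdown moved in both directions, 3 of 24 measured members rising and 6 falling. Bhmt, which remethylates homocysteine, rose 1.87-fold (10.75 ± 0.27 to 11.65 ± 0.11). Gnmt, which uses up methyl groups, fell by 0.89 ± 0.20, Hpd, of tyrosine breakdown, by 1.02 ± 0.24, and Hal, of histidine breakdown, was at least 1.08-fold lower. Otc (0.41) and Cps1 (-0.37) of the urea cycle did not pass. In iron handling 1 of 18 rose and 3 fell: Hjv, the co-receptor that drives hepcidin, ended at background (means 7.73 and 6.86), Aco1, which doubles as an iron sensor, fell by 0.62 ± 0.09, and Hamp, hepcidin itself, spread from 7.97 to 10.55 in controls and did not pass.

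Targets of other receptors for foreign compounds were then counted. Of 23 genes known to answer to CAR or PXR, 2 rose, Aldh1a7 among them, and 2 were called lower, with 12 at background in both groups. Over all genes 9.27% were called, and of the 6553 genes above background 910 were higher and 534 lower. Without GenX10 replicate 1, 2 members of the list in all were called. The standard markers did not pass: Cyp2b10 was at background in both groups, and Cyp3a11 had signals of 8.12 to 9.74 in controls and 7.69 to 9.55 in GenX10. None of 6 AHR target genes was called, and all 6 were at background in both groups. Of 14 antioxidant genes under NRF2, 2 rose and 1 fell, Ephx1 among the rises, and 1 was called without GenX10 replicate 2. Of 22 genes of the unfolded protein and amino acid stress responses, 1 fell, the cysteine enzyme Cth (-0.77 ± 0.21), and none did without control replicate 3. None of 20 interferon genes was called, 18 of them at background in both groups.

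Several identity and growth markers of the fetal liver did not pass the test. Alb differed by -0.02 (interval -0.12 to 0.08), Afp by -0.08 (-0.18 to 0.03) and Igf2, the fetal growth factor, by 0.08 (-0.01 to 0.17). Mki67, a marker of dividing cells, had signals of 11.36 to 11.97 in controls and 11.60 to 11.98 in GenX10, and of 31 cell cycle genes 1 was called, the inhibitor Cdkn1c, which fell by 0.43 with overlap of the groups and was not called without GenX10 replicate 1 or 2. Igfbp2, a binding protein of the insulin-like growth factors, rose 2.00-fold (adjusted p = 0.035), a call lost in 7 of 22 alternatives. Peg3, an imprinted gene, rose 1.67-fold.

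Markers of the cell types present were set beside these changes. Of 27 red cell genes none was called, and their mean level per array was 8.77 to 9.19 in controls and 8.94 to 9.09 in GenX10. The mature hepatocyte list of 19 had 2 rises and 6 falls, 5 calls without GenX10 replicate 2, and its mean level was 9.15 to 9.32 in controls and 8.75 to 9.14 in GenX10. The fetal hepatocyte list of 17 had 1 rise and 1 fall, with means of 8.77 to 8.95 and 8.64 to 8.76. For both lists the ranges of the groups did not overlap, but only narrowly. The lowest control and the highest GenX10 array were at 9.15 against 9.14 in the mature list and 8.77 against 8.76 in the fetal list. These means include the called genes themselves, Cyp2e1 among those of the mature list. The 1 fall of the fetal list was of a gene at background in both groups (means 5.83 and 4.01). The part of a shift in hepatocyte content in the falls of hepatocyte genes was not tested. Of 22 macrophage genes 3 fell by under 1.5-fold, Csf1r by 0.31 ± 0.09 and the others at background in both groups, and these 3 calls were 0 without GenX10 replicate 1. No gene of megakaryocytes (13) or of eosinophils, basophils and mast cells (15) was called, and the latter had no marker above background in controls.

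No gene was called between the 2 doses of GenX. Of 30751 genes 0 (0%) passed an adjusted p under 0.05 between GenX10 and GenX2 in limma, under the main settings and under each alternative, the smallest adjusted p was 1, and 619 genes (2.01%) had an unadjusted p under 0.05. For Cyp4a14 the difference between doses was -0.01 with a 95% interval of -0.72 to 0.71, for Ehhadh 0.04 (-0.24 to 0.31) and for Acot2 0.06 (-0.29 to 0.42). Signals at 2 mg/kg/day were 12.37 to 12.69, 12.49 to 12.65 and 12.06 to 12.56 for these genes, in the range of the higher dose. These are high signals, with Alb at 13.31 in controls, and whether such signals still resolve a difference was not tested. Abhd6, less bright at 9.83 to 10.49 at 2 mg/kg/day, differed between doses by 0.08 (-0.25 to 0.41). Among the falls Cyp2e1 differed by -0.22 (-0.79 to 0.35), Pon1 by -0.10 (-0.65 to 0.46) and Cyp8b1 by -0.18 (-0.77 to 0.41). C1ra differed by -0.28 (-0.47 to -0.09) and C1s1 by -0.54 (-1.0 to -0.08), lower at the higher dose and with intervals that exclude 0, but neither was called. Among the genes called against control the half-width of the interval between doses had a median of 0.18. These intervals are not adjusted for the number of genes, while a call needed an adjusted p under 0.05. Larger differences than 0.18 could therefore also go uncalled, as that of C1s1 did. Against the same controls, which both comparisons share, the lower dose had 2070 calls (6.73%), 1200 higher (3.9%) and 870 lower (2.83%).

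**Figure D4:**
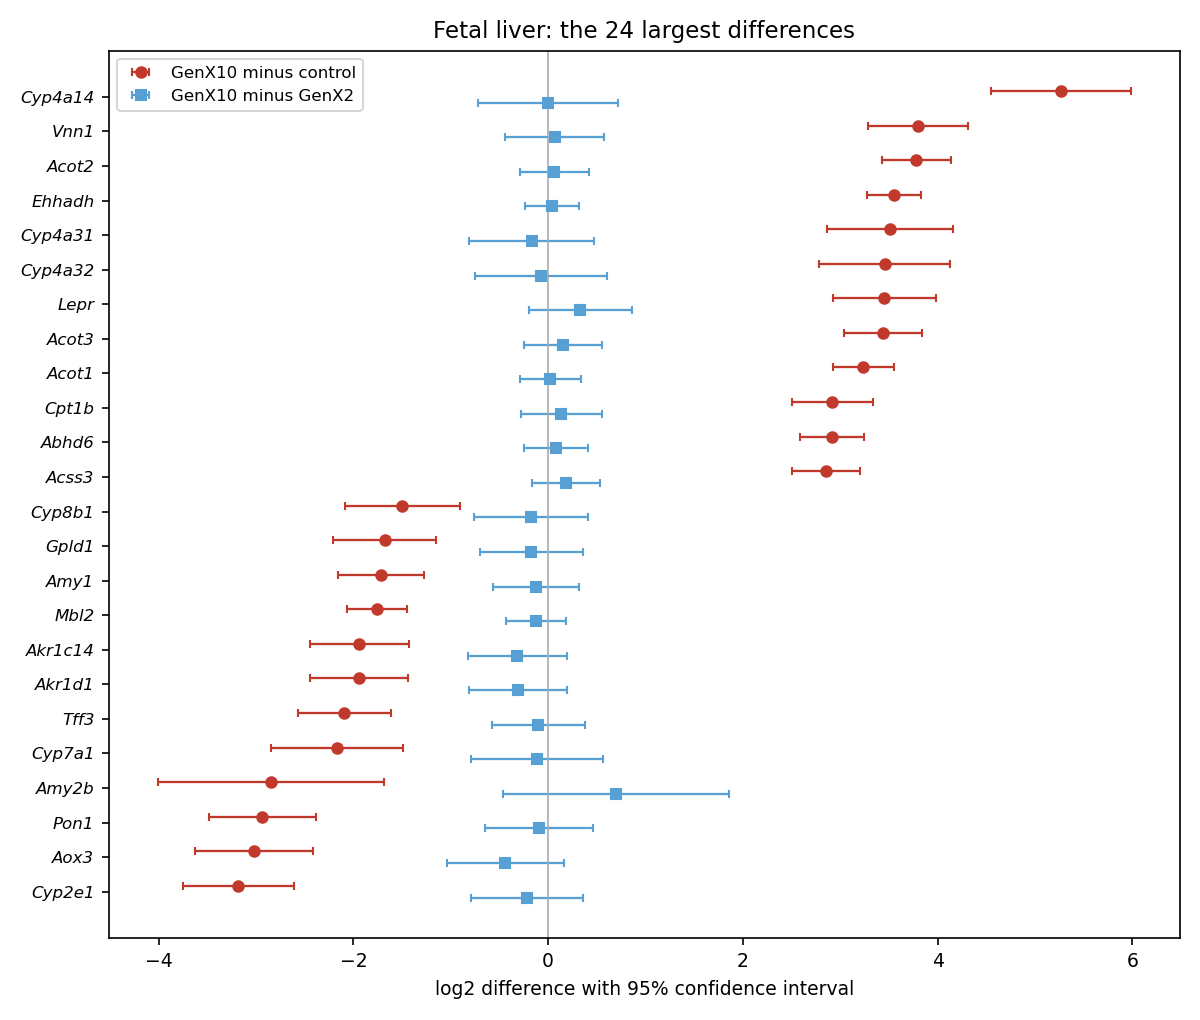
Log2 differences with 95% confidence intervals for the 12 largest rises and the 12 largest falls of known genes, GenX10 against control in fetal liver without overlap of the groups, beside the difference of the same genes between GenX10 and GenX2. Intervals of the dose difference include 0 for all 24 genes. Differences of genes at background in a group are measured values and may understate the change.

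The response of the fetal liver was then set against that of the maternal liver at the same dose by testing the difference of the 2 changes in 1 fit of 10 groups. It differed for 626 of 30751 genes (2.04%), 226 with the higher and 400 with the lower change in the fetus (0.735% and 1.3%). In the dams, in a separate fit of the maternal arrays alone, 4233 genes were called (13.8%), 2321 higher (7.55%) and 1912 lower (6.22%). Most fatty acid oxidation genes rose in both: 25 of 27 peroxisomal and 21 of 21 mitochondrial members rose in dams, with medians of 1.00 and 1.13. Of the 27 peroxisomal members 3 had the higher and 3 the lower change in the fetus. Among the lower were Scp2 and Acox2, which were not called in the fetus. Ehhadh rose by 3.55 in fetal and 2.47 in maternal liver (adjusted p of the difference = 0.012), Crot by 1.62 and 0.78 (0.0039) and Abcd3 by 1.92 and 1.17 (0.034), while Crat, which makes short carnitine esters, rose by 0.68 and 1.50 (0.0022). The mean signal of Ehhadh went from 9.04 to 12.59 in the fetus and from 10.47 to 12.94 in dams. Whether such high signals still resolve a difference was not tested. Acadvl rose more in the fetus, by 1.29 against 0.61 (adjusted p = 0.00011). Acot2 (3.78 and 3.37) and Cpt1a (1.08 and 0.97) gave no call of a difference.

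Of the 36 PPAR-responsive lipid genes 12 had the lower and 2 the higher change in the fetus, and 22 gave no call of a difference. Fabp3 was at background in the fetus (-0.38) and rose by 3.61 in measured signal in dams (adjusted p of the difference = 1.1e-09), Fabp5 differed by 0.03 in the fetus and rose by 1.75 in dams (4e-08), the maternal controls of both being at background, and Pdk4 rose by 2.67 and 4.79 (0.0007). Fabp1 went the other way, with rises of 1.91 in the fetus and 0.76 in dams (3e-05), as did Creb3l3 with 1.04 and 0.38. The mean signal of Fabp1 went from 10.40 to 12.31 in the fetus and from 11.87 to 12.64 in dams. Whether its high signals limit the maternal rise was not tested. In cholesterol synthesis 11 of 18 members had the lower change in the fetus and none the higher, and the maternal median was 0.91. Hmgcs1 differed by 0.35 in the fetus and rose by 1.25 in dams (adjusted p of the difference = 0.0096), and Sqle by 0.14 and 0.88 (0.0074). Scd1 rose by 0.84 and 1.78, and Pltp, which moves phospholipid between lipoproteins, differed by 0.62 and 2.46 (0.00011).

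Several hepatocyte genes fell in the fetus and not in the dam, while others fell in both. Cyp2e1 was lower by 3.18 in measured signal in the fetus and differed by -0.10 in dams, where it lay at 12.24 and 12.14 (adjusted p of the difference = 3.7e-09). Pon1 showed -2.94 and -0.14 (6.7e-09), Akr1d1 -1.94 and -0.01 (1.2e-05), Cyp8b1 -1.50 and 0.36 (0.0002) and Hp -1.37 and 0.20 (0.0021). Cyp7a1 showed -2.17 and -1.07, and the difference did not pass (0.63). Falls called in both were those of C1s1 (-1.41 and -1.78), C1ra (-1.08 and -0.86) and Aox3 (-3.02 and -1.81), in measured signal. In dams 12 of 23 acute phase genes were lower and 1 higher. Of 33 complement and coagulation genes 15 were lower in dams and none higher. Among rises, Acss3 showed 2.86 and 0.73 (4e-08), Abhd6 2.92 and 1.30 (9.1e-07), Ces1g 2.76 and -0.06 (2.5e-06) and Aldh1a7 2.35 and 0.13 (0.0006). The fetal controls of these 4 genes were at background, so their fetal differences are of measured signal and may understate the change. Maternal changes without a fetal counterpart included the major urinary protein Mup3, a product of the adult liver, which fell by 2.84 in dams and was at background in the fetus. The near copies Cyp4a12a and Cyp4a12b rose by 6.76 and 6.61 in dams from background and by 2.37 and 2.69 in the fetus (adjusted p of the differences = 0.0023 and 0.0061), where controls already lay at 9.10 ± 0.75 and 8.79 ± 0.69. Labels do not tell which fetus belongs to which dam, so the arrays were treated as independent, and the labels do not say whether fetal and maternal arrays went through normalisation as a single set.

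**Figure D5:**
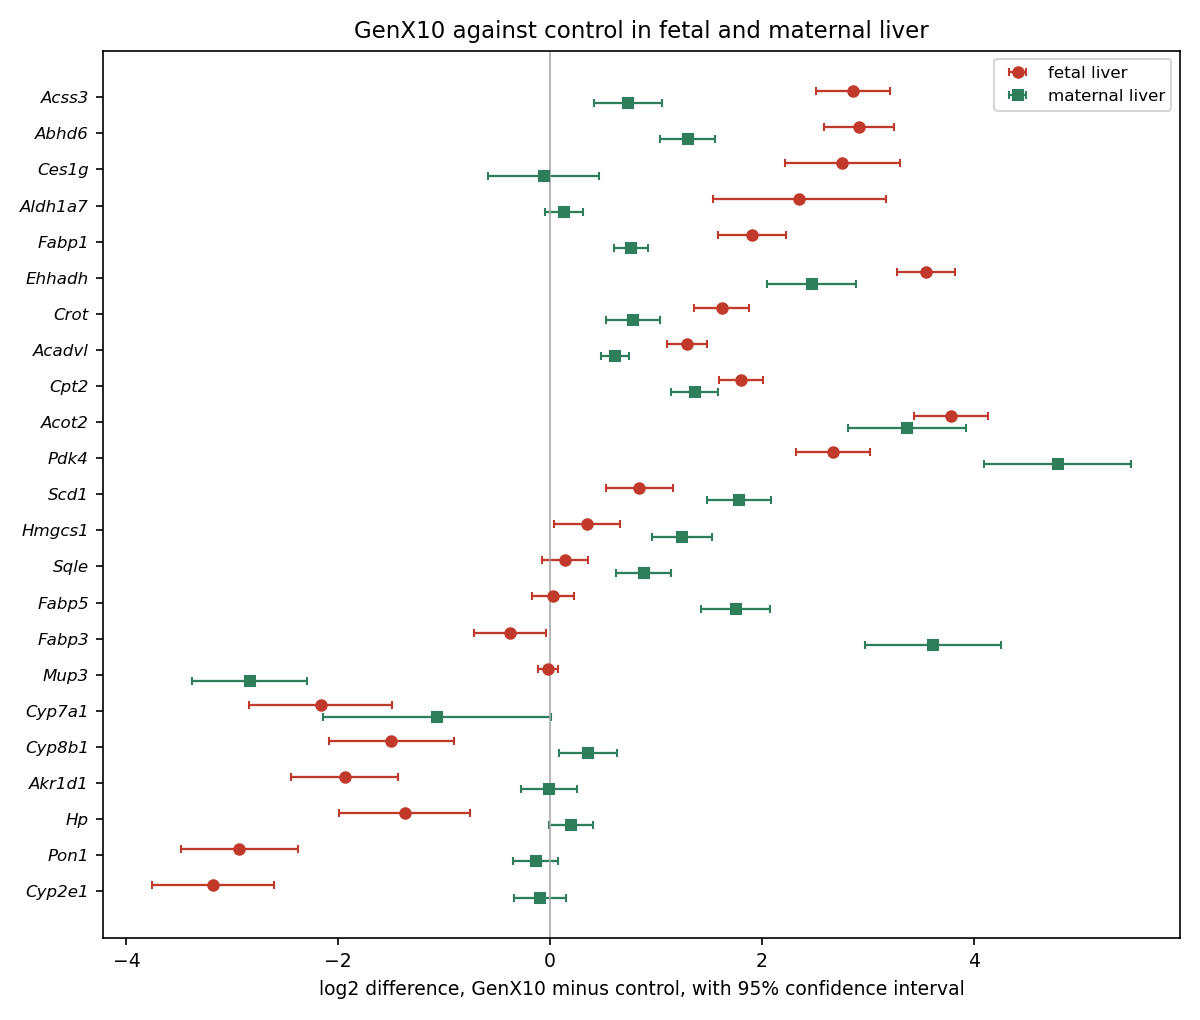
Log2 difference between GenX10 and control with its 95% confidence interval for 23 genes, in fetal liver (circles) and in maternal liver (squares). Cyp2e1, Pon1, Hp, Akr1d1 and Cyp8b1 lie well below 0 in the fetus and near 0 or above it in dams, and Fabp3, Fabp5 and Hmgcs1 lie well above 0 in dams.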

How the data were processed

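RNA of each liver (25 ng) was hybridised to an Affymetrix whole-transcript mouse array, per the labels' protocols. The deposited values are log2 signals made by the authors with RMA, mouse build mm10, per the submitters' processing notes, which give no versions. Of 65956 transcript clusters, 32750 are annotated. Probes with several genes were left out (1526), symbols were updated through gene identifiers, and the brightest probe stood for a gene, leaving 30751 genes. A gene was called at background (not well above background) in a group where no array exceeded the 95th percentile of its own negative control probes.

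Differences were tested with limma 3.58.1 (lmFit and eBayes, R 4.3.3) on the 25 fetal arrays in 5 groups, and the tissue difference on all 50 arrays in 10 groups. Calls in dams came from a separate fit of the maternal arrays alone, with all 5 maternal groups in it. P-values were adjusted by Benjamini and Hochberg over all genes, with 0.05 as threshold, two-sided. SE and 95% intervals are those of the fit. Where a group was at background, a fold is a lower bound. It sets the brighter group's mean against a mean over the dimmer group's arrays. Each such array enters with its limit of background, or with the probe's own signal if higher. The scripts were tested on simulated data.

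The members and the gene lists were chosen with earlier results of these data known. Genes were named by rule: the 12 largest called changes each way among genes with a common name whose arrays did not overlap and whose brighter group was above background, the 5 largest called tissue differences each way, per list the called members of lowest p, at most 4, or failing any call its top-ranked member, and the 35 measured of 40 well-known genes. Of 150 genes named, 87 came from the rule and 63, other list members, were added after their values were seen. Alternatives covered variance trend, dim genes, normalisation, centring, probe choice, array weights, arrays in the fit, disagreeing labels, low Xist, size of change, replicate block and each array left out. A fit of all 10 groups was added after seeing the data. Beyond the stated sex and the random draw, the labels say of the fetal replicates only that they are separate samples, 1 fetus per litter.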

Additional observations from a re-analysis of the deposited data

Results flagged for a closer look

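Among the 150 genes named, 342 sets of 4 or 5 fetal arrays of a group above background were screened for a single array far from the rest of its group (Dixon's test), and 27 were marked. Chance marks about 1 set in 20. The values are log2 signals. GenX10 replicate 1 stood apart as the highest for Acot2 (12.62, next 12.23), Acot1 (11.15, next 10.83), Pdk4 (11.86, next 11.28) and Foxo1 (9.13, next 8.49). GenX10 replicate 2 stood apart as the highest for Sqle (9.24, next 8.96). GenX10 replicate 3 stood apart as the lowest for Cth (8.68, next 9.34). GenX10 replicate 4 stood apart as the highest for Itih4 (10.96, next 10.83). GenX2 replicate 4 stood apart as the lowest for Cyp4f15 (8.22, next 8.57), Hacl1 (7.48, next 8.74), Acadl (11.03, next 11.21), G6pc (7.95, next 9.19), C4b (7.42, next 8.47), Mbl1 (7.75, next 8.23), Itih4 (10.55, next 10.97) and Cth (7.98, next 9.04). GenX2 replicate 5 stood apart as the highest for Acot1 (11.21, next 10.83), Cpt2 (10.40, next 10.18), Mttp (10.39, next 10.02), Slc37a4 (9.01, next 8.67), Apob (12.09, next 11.96) and Crat (9.47, next 9.24). Control replicate 1 stood apart as the lowest for Fgg (12.46, next 12.69). Control replicate 3 stood apart as the highest for Cyp7a1 (8.78, next 8.05). Control replicate 4 stood apart as the lowest for Hpx (11.04, next 11.40) and as the highest for Hsd17b7 (8.72, next 8.30). Control replicate 5 stood apart as the lowest for Acox2 (8.63, next 8.94) and Sqle (8.63, next 8.88). GenX2 replicate 5 is the array whose source name gives another group than its title.

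The change at GenX10 differed between fetal and maternal liver at an adjusted p under 0.05 (limma, the difference itself tested) for 56 of the genes named. The values are the fetal minus the maternal log2 difference. In 21 of them the fetal change was the higher: Ces1g (2.82), Mup3 (2.82), Aldh1a7 (2.22), Acss3 (2.12), Abhd6 (1.62), Lepr (1.52), Cyp4a31 (1.47), Orm2 (1.42), Fabp1 (1.14), Bhmt (1.09), Ehhadh (1.08), Otc (1.06), Igf2 (0.87), Crot (0.84), Slc2a2 (0.84), Abcb11 (0.81), Abcd3 (0.74), Mbl1 (0.74), Mttp (0.70), Acadvl (0.68) and Creb3l3 (0.66). In 35 it was the lower: Cyp4a12a (-4.39), Fabp3 (-3.99), Cyp4a12b (-3.92), Cyp2e1 (-3.09), Pon1 (-2.80), Pdk4 (-2.12), Akr1d1 (-1.93), Cyp8b1 (-1.86), Pltp (-1.84), Fabp5 (-1.73), Hp (-1.57), Cidea (-1.53), Fabp4 (-1.49), Retsat (-1.48), Hjv (-1.39), Ucp3 (-1.31), Akr1c14 (-1.23), Gpld1 (-1.22), Aco1 (-1.18), Tff3 (-1.15), Hpd (-1.06), Cyp27a1 (-1.03), Slc27a5 (-0.98), Amy1 (-0.96), Lpin2 (-0.94), Scd1 (-0.94), Hmgcs1 (-0.90), Hsd17b7 (-0.84), Crat (-0.82), Cyp51 (-0.79), Scp2 (-0.74), Mgll (-0.74), Sqle (-0.74), Csf1r (-0.71) and Acox2 (-0.54). A higher value can mean a larger rise or a smaller fall in the fetus: Mup3 and Orm2 were at background in both fetal groups and fell in dams, and Otc and Igf2 passed in neither direction in the fetus. No explanation of these marks was tested.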

How the results depend on the processing

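Each result was recomputed with 1 choice changed at a time. The 2851 calls between GenX10 and control were 1653 of 6473 genes with a filter on dim genes, 1751 with the groups compared alone, 693 where a change of at least 1.5-fold was also required, and 1547 to 3993 with an array left out, 1505 and 1688 of the main calls remaining without GenX10 replicate 1 and without GenX10 replicate 2. With every array shifted to a common median 2137 calls were higher and 831 lower, which left the falls at 5 in the acute phase list, 4 in the apolipoprotein list, 3 in the mature hepatocyte list and 0 in the macrophage list. The 626 genes whose change differed between tissues were 373 with a 1.5-fold minimum and 470 to 610 with an array left out. The comparison of the doses gave 0 calls in every alternative run, with 52 of 6473 genes at an unadjusted p under 0.05 under the filter on dim genes and 362 to 1464 of 30751 under the others.

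Of the 150 genes named in the text 108 were called. Of these, 87 stayed called in every alternative, 21 lost the call in at least 1 and 14 in at least 5. None of them reversed, and 9 of the 42 others gained a call in at least 1. The risen members were 17 to 19 in the peroxisomal list, 17 to 18 in the mitochondrial list, 7 in the omega oxidation list and 15 to 16 in the lipid handling list with an array left out.

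The replicate numbers share a count only: the correlation of deviations between GenX10 and control arrays of the same number was -0.06, 0.46, -0.54 and -0.04. With the replicate number as a block there were 2267 calls between GenX10 and control, 0 between the doses and 574 between the tissues. The number of arrays limits the precision, and genes near background, 24198 of 30751 in both groups, have compressed differences. Whether the brightest signals are compressed as well was not tested.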
